A study of Mus musculus with 8 samples.

Results

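The Cyp2c genes encode cytochrome P450 enzymes of the mouse liver, and 10 of them were examined here by name: Cyp2c29, Cyp2c37, Cyp2c38, Cyp2c39, Cyp2c40, Cyp2c44, Cyp2c50, Cyp2c54, Cyp2c55 and Cyp2c70. Every array probe whose platform annotation carried one of these symbols was taken, which gave 13 probes for 8 genes out of 25697 probes for 16593 genes. Cyp2c44, which RefSeq now calls Cyp2c23, and Cyp2c54 had no listed probe and were not analysed here. The sequences of the probes were not used here, and a probe may bind the transcript of a close relative, so each value belongs to a probe and its named gene is that of the annotation.

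The study measured RNA from frozen liver outside tumours on 8 Illumina bead arrays, 2 for each of 4 groups of male A/J mice, an inbred strain. The groups were CCl4, CCl4 with 2 mg of erlotinib, CCl4 with 5 mg of erlotinib, and vehicle. Per the labels' protocol, CCl4 was given by gavage as 0.1 cc of a 40% solution in olive oil 3 times a week for 18 weeks, the vehicle group got the vehicle by the same route, and death followed a washout of 1 week, at week 19, whereas the source label names week 18. CCl4 is a hepatotoxin that P450 enzymes turn into a reactive radical, and repeated doses scar the liver. Erlotinib is a drug that blocks EGF receptor kinase activity. The sources used here give no body weight or schedule for the erlotinib doses and no age of the mice. Whether both arrays of a group come from different mice is not stated either, so the spread between these arrays may be technical. The p-values and SEs pool that spread with the spread over all tested probes, at 4 residual and 12.7 prior degrees of freedom. The titles of the vehicle arrays begin with other letters (OO) than those of all other arrays (CT); their meaning is not stated, and whatever they mark cannot be told apart from CCl4 against vehicle.

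As background, Cyp2c enzymes sit in the endoplasmic reticulum of hepatocytes, where they oxidise drugs, steroids, retinoids and fatty acids with electrons passed on by P450 reductase and cytochrome b5. Several mouse members turn arachidonic acid into epoxyeicosatrienoic acids, short-lived lipid mediators that soluble epoxide hydrolase breaks down. The genes lie side by side, and their transcription in hepatocytes depends on nuclear receptors such as HNF4A, CAR (Nr1i3) and PXR (Nr1i2) and, for some members, on the pulses of growth hormone.

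In RefSeq (GRCm38.p6), all 10 genes lie on chromosome 19, in the order Cyp2c55, Cyp2c29, Cyp2c39, Cyp2c38, Cyp2c40, Cyp2c37, Cyp2c54, Cyp2c50, Cyp2c70 and Cyp2c44, with other Cyp2c genes between them. RefSeq promoter windows, from 250 bases before to 50 after the transcription start, were matched for the 8 genes with a probe and for Cyp2c67, a further family gene with a probe. The windows of Cyp2c37 and Cyp2c50 are shown because their probes moved together, and those of Cyp2c67 and Cyp2c70 because Cyp2c67 probe 1 and the Cyp2c70 probe, both above background on every array, did not pass the threshold with erlotinib against CCl4. The capitals mark CAAAGTC, the core of an HNF4 site, a motif added after the windows had been read.
Cyp2c37, chr19:39992174-39992473, plus strand: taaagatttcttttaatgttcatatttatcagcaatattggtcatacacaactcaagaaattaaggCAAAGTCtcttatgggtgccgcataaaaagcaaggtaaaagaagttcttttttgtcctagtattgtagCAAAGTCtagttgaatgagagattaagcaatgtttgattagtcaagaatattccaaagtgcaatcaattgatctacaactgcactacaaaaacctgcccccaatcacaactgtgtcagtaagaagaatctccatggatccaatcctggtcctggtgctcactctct
Cyp2c50, chr19:40089429-40089728, plus strand: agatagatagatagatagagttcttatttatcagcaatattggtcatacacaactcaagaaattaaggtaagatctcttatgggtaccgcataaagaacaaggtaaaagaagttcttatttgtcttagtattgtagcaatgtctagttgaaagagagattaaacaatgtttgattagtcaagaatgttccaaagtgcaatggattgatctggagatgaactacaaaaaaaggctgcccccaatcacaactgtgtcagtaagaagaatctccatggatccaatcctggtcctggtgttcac
Cyp2c67, chr19:39648993-39649292, minus strand: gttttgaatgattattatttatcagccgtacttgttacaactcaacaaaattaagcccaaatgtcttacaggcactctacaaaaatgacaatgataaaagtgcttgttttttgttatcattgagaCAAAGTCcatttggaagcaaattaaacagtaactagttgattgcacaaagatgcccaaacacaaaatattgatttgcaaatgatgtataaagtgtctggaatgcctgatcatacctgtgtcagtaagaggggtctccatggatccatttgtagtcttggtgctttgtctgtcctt
Cyp2c70, chr19:40187237-40187536, minus strand: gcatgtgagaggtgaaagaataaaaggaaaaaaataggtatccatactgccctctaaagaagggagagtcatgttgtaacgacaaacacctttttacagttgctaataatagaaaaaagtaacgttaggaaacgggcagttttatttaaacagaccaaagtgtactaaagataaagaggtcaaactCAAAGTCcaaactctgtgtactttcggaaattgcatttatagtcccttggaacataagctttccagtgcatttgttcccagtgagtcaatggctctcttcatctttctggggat
The Cyp2c37 and Cyp2c50 windows were 90.1% identical, at 263 of 292 aligned bases. Cyp2c37 and Cyp2c67 shared 75.4% over 276 bases, and Cyp2c50 and Cyp2c70 72.6% over 190. On both strands, CAAAGTC occurred 2 times in the Cyp2c37 window, 184 and 116 bases before the start, and 0 times in that of Cyp2c50. It occurred 1 time each in the windows of Cyp2c29, Cyp2c39 (the first of its 2 listed windows), Cyp2c40, Cyp2c67 and Cyp2c70 and 0 times in those of Cyp2c38 and Cyp2c55, against 4.44% of all 32851 RefSeq promoter windows with a match. As this motif was chosen after these windows had been read, and the windows are alike in sequence, that share cannot show an excess. The nuclear receptor core AGGTCA occurred 1 time each in the windows of Cyp2c29, Cyp2c39 and Cyp2c70 (16.3% of all windows). The HNF1 core GTTAAT occurred 1 time, in that of Cyp2c40 (7.1% of all windows). The direct repeats AGGTCANAGGTCA and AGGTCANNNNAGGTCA, the STAT5 palindrome TTCNNNGAA and the C/EBP palindrome TTGCGCAA, found in 0.04%, 0.015%, 8.3% and 0.183% of all windows, occurred 0 times in these windows. A match is a string of letters and not a shown binding site, and a missing match says only that the letters are not in the window.

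Array medians before scaling were 99.82 to 129.8 intensity units, and the 2 arrays of a group correlated at 0.9832 to 0.9866 over the tested probes. Detection p-values were not used here, and a background limit was set for each array from 1326 probes of chemosensory receptors (odorant, trace amine and vomeronasal) at their 99th percentile. It was 111.4 to 145.2 units, which 23.0% to 26.1% of all probes exceeded. Hepatocyte identity genes had 17 tested members, and 0 of them were under background on every array. Of 15 tested genes of bile acid synthesis, however, 4 were under it on every array, and of 14 periportal hepatocyte genes 2. A probe under the limit therefore does not show that its gene is not expressed. Values below are log2 intensities after normexp correction with an offset of 50 and quantile scaling, an offset that understates changes of dim probes, and a change is called at a Benjamini-Hochberg adjusted p under 0.05 in limma over 15418 probes.

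By that background, the Cyp2c probes fell into bright and dim ones. Cyp2c70, whose enzyme makes muricholic acids from other bile acids in mice, exceeded it on all 8 arrays, at 2671% to 4695% of the limit. Probes 1 and 2 of Cyp2c37, an arachidonic acid oxygenase, and probe 1 of Cyp2c50, an epoxygenase, were above it on all 8 as well, with lowest values of 220.1%, 224.5% and 276.0% of the limit, each in a CCl4 liver. Cyp2c39, whose enzyme oxidises retinoic acid and arachidonic acid, was above it on 6 arrays, and the 2 arrays under it were those of the CCl4 group.

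The remaining members were near or under the limit. Cyp2c55, an arachidonic acid hydroxylase, was above background on 2 arrays, 1 of each erlotinib dose. Cyp2c29, an arachidonic acid epoxygenase, reached 106.3% of the limit on 1 array of the 2 mg group and was under it on the other 7. Cyp2c38 and both probes of Cyp2c40, also arachidonic acid oxygenases, were under it on every array, as were probe 2 of Cyp2c29, probe 3 of Cyp2c37 and probe 2 of Cyp2c50. Those last 3 probes did not pass the filter on low intensity, so 10 of the 13 probes, at least 1 for each of the 8 genes, were tested.

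**Figure D1:**
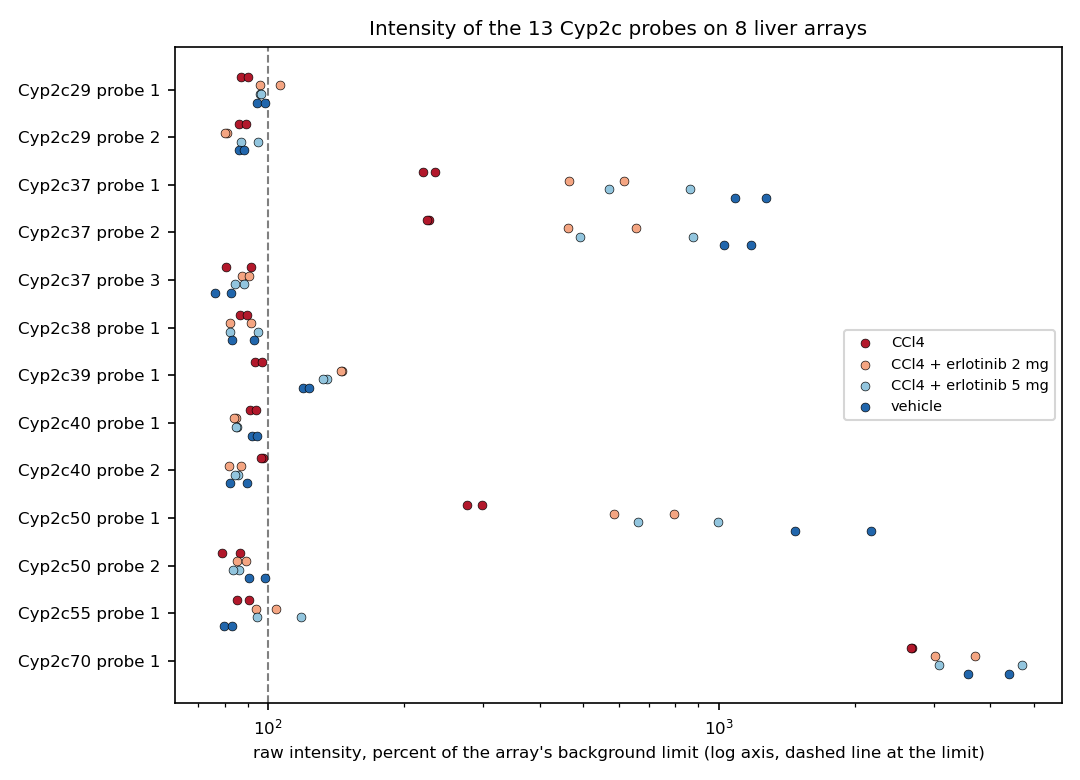
Raw intensity of each of the 13 Cyp2c probes on each of the 8 arrays, as a percentage of that array's background limit on a log axis. Cyp2c70, Cyp2c50 probe 1 and Cyp2c37 probes 1 and 2 lie right of the dashed line on every array, Cyp2c39 on 6 arrays, and the other probes on 0 to 2.

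After 18 weeks of CCl4, the Cyp2c37, Cyp2c50 and Cyp2c39 probes were lower than with vehicle, and 0 of the 8 genes were higher. By the brightest probe of each gene, Cyp2c37 was 6.35-fold and Cyp2c50 7.05-fold lower. Cyp2c39 was at least 1.42-fold lower, a bound because both CCl4 arrays were under background. These 3 of 8 genes compare with 5.51% of all tested probes called lower, 5.97% called higher and 11.5% called in either direction. The median change over the 8 genes was -0.29 (log2), against -0.002 over all tested probes.

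Cyp2c50 had log2 values of 8.35 and 8.21 in CCl4 livers and 11.32 and 10.87 in vehicle livers. The groups lay far apart, and the change was -2.82 ± 0.18 (log2, SE; limma adjusted p = 9.13e-09). Cyp2c37 probe 1 read 7.95 and 7.81 in CCl4 livers and 10.64 and 10.45 in vehicle livers. Its change was -2.67 ± 0.16 (adjusted p = 9.13e-09), and that of probe 2 was -2.58 ± 0.19 (adjusted p = 7.02e-08), so both bright probes of the gene fell by similar amounts. Cyp2c39 read 6.25 and 6.31 in CCl4 livers and 6.84 and 6.93 in vehicle livers, a change of -0.61 ± 0.13 (adjusted p = 0.00383). Without vehicle replicate 2 the Cyp2c39 change was -0.56 with an adjusted p of 0.0537 in limma, within a range of 0.00167 to 0.0537 over the alternatives tried.

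Cyp2c70 read 11.90 and 11.96 in CCl4 livers and 12.41 and 12.16 in vehicle livers. Its groups did not overlap, but the change of -0.35 (95% interval -0.70 to -0.01) did not pass the threshold (limma adjusted p = 0.239). Cyp2c29 and Cyp2c55 also had groups that did not overlap, with changes of -0.23 and 0.19 that did not pass (limma adjusted p = 0.298 and 0.575), all 4 arrays of either gene being under background. Cyp2c38 and probe 1 of Cyp2c40 had overlapping groups and changes of 0.00 and -0.04, and probe 2 of Cyp2c40 had 0.28 (limma adjusted p = 0.199). Groups without overlap were thus seen for 6 of 8 genes, beside 47.4% of all tested probes.

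Cyp2c67, a family gene outside the 10 that lies between Cyp2c38 and Cyp2c40, read 9.24 and 9.25 in CCl4 livers and 10.94 and 10.56 in vehicle livers by its bright probe. It fell by 1.50 on the log2 scale (SE 0.17, limma adjusted p = 8.33e-06). Its second probe, under background on both CCl4 arrays, was at least 1.26-fold lower (limma adjusted p = 0.0266).

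With erlotinib added to CCl4, the same 3 genes were higher than with CCl4 alone at both doses, and 0 of 8 were lower. At 2 mg, Cyp2c37 was 2.82-fold and Cyp2c50 2.78-fold higher. At 5 mg they were 3.76-fold and 3.30-fold higher. Cyp2c39 was at least 1.78-fold higher at 2 mg and at least 1.56-fold higher at 5 mg. At 2 mg, 4.05% of all tested probes were called higher, 4.06% lower and 8.11% in either direction, and at 5 mg 4.13%, 4.14% and 8.28%. Both dose comparisons and the comparison with vehicle use the same 2 CCl4 arrays, so a low or high CCl4 array moves all of them.

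Cyp2c37 probe 1 read 9.42 and 9.33 in 2 mg livers, 9.47 and 10.12 in 5 mg livers and 7.95 and 7.81 in CCl4 livers. All 4 erlotinib arrays were above both CCl4 arrays. The changes against CCl4 were 1.50 ± 0.16 at 2 mg and 1.91 ± 0.16 at 5 mg (limma adjusted p = 1.52e-05 and 9.91e-07). Probe 2 read 9.41 and 9.42 in 2 mg livers, 9.25 and 10.13 in 5 mg livers and 7.91 and 7.84 in CCl4 livers, with changes of 1.54 and 1.82 (limma adjusted p = 4.82e-05 and 9.34e-06). With median scaling in place of quantile scaling, the 2 mg change of probe 2 had an adjusted p of 0.0567, within a range of 9.33e-07 to 0.0567 over the alternatives. The 5 mg arrays differed from each other more than those of any other group for this gene, replicate 2 being the higher. The 5 mg SD was 0.459 by probe 1 and 0.627 by probe 2. The SEs above draw on other probes too and can understate such a gap.

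Cyp2c50 read 9.81 and 9.70 in 2 mg livers, 9.69 and 10.31 in 5 mg livers and 8.35 and 8.21 in CCl4 livers. Again all erlotinib arrays were above both CCl4 arrays, with changes of 1.48 ± 0.18 at 2 mg and 1.72 ± 0.18 at 5 mg (limma adjusted p = 3.33e-05 and 6.71e-06). With median scaling the 2 mg change was 1.39 with an adjusted p of 0.0512, within a range of 3.94e-06 to 0.0512 over the alternatives.

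Cyp2c39 read 7.41 and 7.02 in 2 mg livers, 7.04 and 7.003 in 5 mg livers and 6.25 and 6.31 in CCl4 livers, where both arrays were under background. The changes of 0.94 ± 0.13 and 0.74 ± 0.13 passed in limma (adjusted p = 0.000136 and 0.00103).

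Cyp2c70 read 12.20 and 12.03 in 2 mg livers, 11.90 and 12.54 in 5 mg livers and 11.90 and 11.96 in CCl4 livers. Neither change, 0.18 (95% interval -0.17 to 0.53) at 2 mg or 0.28 (-0.07 to 0.63) at 5 mg, passed (limma adjusted p = 0.7 and 0.445), and the 5 mg group overlapped the CCl4 group. The 5 mg arrays differed from each other here too, and without 5 mg replicate 1 the change at 5 mg was 0.60 (limma adjusted p = 0.0299), within a range of 0.0299 to 0.97 over the alternatives. Cyp2c55 read 6.26 and 6.44 in 2 mg livers, 6.77 and 6.27 in 5 mg livers and 6.18 and 6.01 in CCl4 livers, with changes of 0.25 and 0.42 that did not pass (limma adjusted p = 0.442 and 0.107). Without 5 mg replicate 2 the change at 5 mg was 0.67 (limma adjusted p = 0.0146; range over the alternatives 0.0146 to 0.742).

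Cyp2c29, Cyp2c38 and both probes of Cyp2c40 had changes between -0.32 and 0.29 at both doses, and their smallest limma adjusted p was 0.154. Groups without overlap were seen for 7 genes at 2 mg, beside 43.6% of all tested probes, and for 6 genes at 5 mg, beside 45.2%. The median change over the 8 genes was 0.27 at 2 mg and 0.35 at 5 mg, against 0.00 over all tested probes at either dose.

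**Figure D2:**
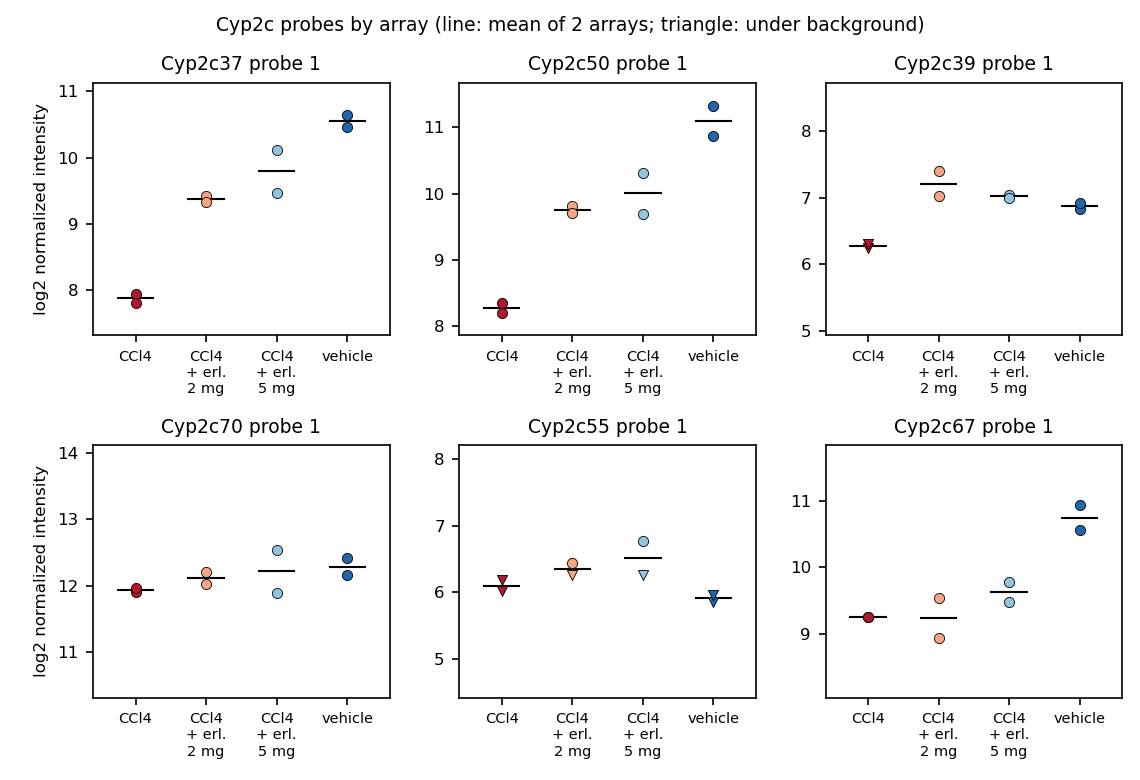
Log2 normalized intensity of 5 Cyp2c probes and of Cyp2c67 probe 1 on each array (points, triangles where the probe was under background) with group means (lines); all panels span the same number of log2 units. Cyp2c37 and Cyp2c50 are lowest in the CCl4 group and highest in the vehicle group, and the erlotinib arrays lie between; the Cyp2c67 erlotinib arrays overlap or lie near the CCl4 arrays.

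Cyp2c67, which was lower with CCl4 as Cyp2c37 and Cyp2c50 were, did not pass with erlotinib. It read 8.94 and 9.54 in 2 mg livers, 9.48 and 9.78 in 5 mg livers and 9.24 and 9.25 in CCl4 livers. Its change was -0.01 (95% interval -0.37 to 0.36) at 2 mg and 0.38 (0.02 to 0.74) at 5 mg, and neither passed (limma adjusted p = 0.991 and 0.259). The difference in response between Cyp2c67 and the members was not tested.

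**Figure D3:**
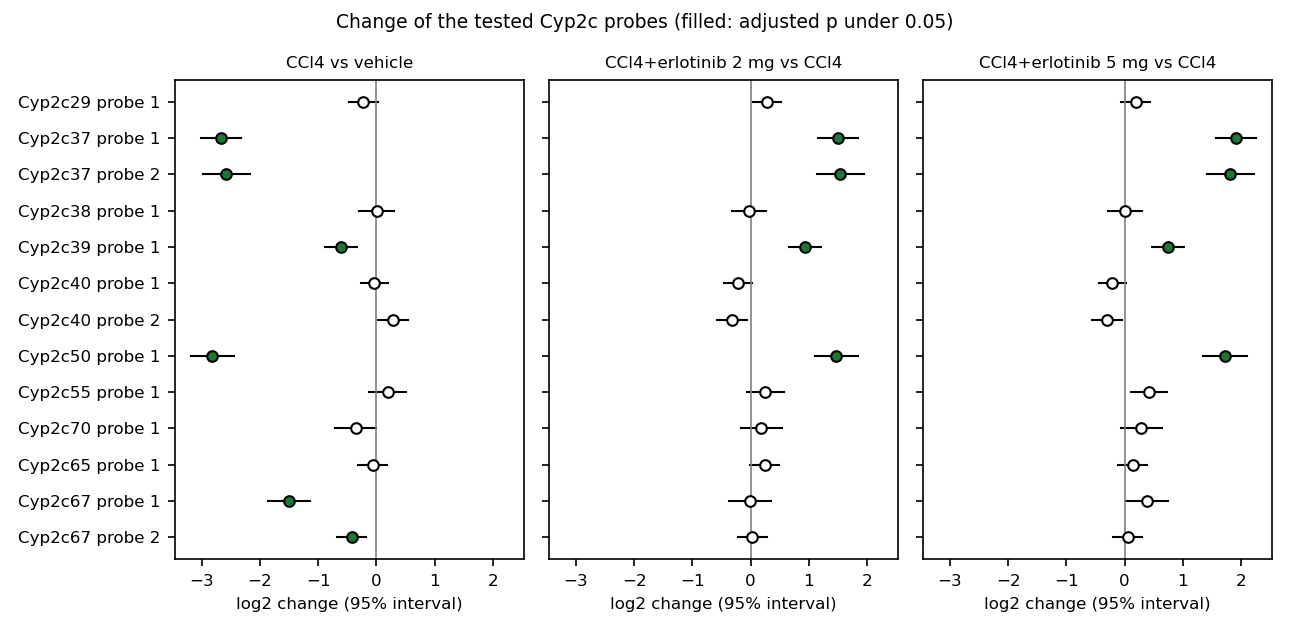
Log2 change with 95% interval for the 10 tested Cyp2c member probes and 3 probes of Cyp2c65 and Cyp2c67, in the 3 comparisons named above the panels; filled points passed the threshold. Cyp2c37, Cyp2c39 and Cyp2c50 are left of 0 for CCl4 against vehicle and right of 0 for both erlotinib doses against CCl4, whereas Cyp2c67 probe 1 is left of 0 in the first panel and has open points in the others.

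Between the doses, 0 of the 8 genes passed at 5 mg against 2 mg in limma, beside 0.013% of all tested probes. At an unadjusted p under 0.05 there was 1, Cyp2c37 by probe 1, with a change of 0.42 (95% interval 0.07 to 0.76; limma adjusted p = 0.996). Probe 2 of that gene had 0.28 (-0.13 to 0.68), Cyp2c50 had 0.25 (-0.12 to 0.62) and Cyp2c39 had -0.195 (-0.47 to 0.08). Of these unadjusted intervals, that of Cyp2c37 probe 1 lay above 0, though the probe did not pass after adjustment, and the others spanned 0. The doses were thus shown neither to differ nor to act alike. Cyp2c29 and Cyp2c37 had groups that did not overlap, 2 of 8 genes beside 32.8% of all tested probes.

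Set against vehicle, Cyp2c37 and Cyp2c50 were lower in both erlotinib groups. At 2 mg, Cyp2c37 was 2.25-fold lower (-1.17 ± 0.16, limma adjusted p = 0.00037) and Cyp2c50 2.54-fold lower (-1.34 ± 0.18, adjusted p = 0.000202). These 2 of 8 genes compare with 1.28% of all tested probes called lower, 1.5% called higher and 2.78% in either direction. Probe 2 of Cyp2c37 gave -1.04 (limma adjusted p = 0.00403). At 5 mg, Cyp2c37 was 1.69-fold lower by probe 1 (-0.75 ± 0.16, limma adjusted p = 0.0208) and Cyp2c50 2.13-fold lower (-1.09 ± 0.18, adjusted p = 0.00186). Probe 2 of Cyp2c37 gave -0.77 and did not pass at 5 mg (limma adjusted p = 0.051), but passed under 4 alternatives: with array weights (0.0434), without CCl4 replicate 1 or 2 (0.0493 each) and without 5 mg replicate 2 (-1.21, 0.000284; range 0.000284 to 0.82). At 5 mg, 0.72% of all tested probes were called lower and 1.78% in either direction.

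Cyp2c55 was the 1 member called higher than with vehicle, at 5 mg. It read 6.77 and 6.27 in 5 mg livers and 5.86 and 5.96 in vehicle livers, both of which were under background. The change was 0.61 ± 0.15 (limma adjusted p = 0.0431), beside 1.06% of all tested probes called higher. Of the 5 mg arrays, 1 was under background too, so no lower bound of the fold is given. Cyp2c39 did not differ beyond the threshold from vehicle at either dose, with changes of 0.33 (95% interval 0.06 to 0.61) at 2 mg and 0.14 (-0.14 to 0.41) at 5 mg (limma adjusted p = 0.27 and 0.836). Cyp2c70 at 2 mg and 5 mg had -0.17 (-0.52 to 0.18) and -0.07 (-0.42 to 0.28). Cyp2c67 was lower than vehicle at 2 mg by 1.51 and at 5 mg by 1.12 on the log2 scale (limma adjusted p = 5.54e-05 and 0.00135).

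Several calls of the erlotinib groups against vehicle depended on single arrays or on the scaling. At 5 mg, the call of Cyp2c37 probe 1 ended under 8 of 19 alternatives, among them those without vehicle replicate 1, vehicle replicate 2 or 5 mg replicate 1 (limma adjusted p = 0.292, 0.0913 and 0.365; range 0.00134 to 0.587). That of Cyp2c50 ended under 3 of 19, among them without vehicle replicate 1 (0.0881; range 0.00052 to 0.222). That of Cyp2c55 ended under 10 of 18, among them without vehicle replicate 1, vehicle replicate 2, 5 mg replicate 1 or either 2 mg array (0.346, 0.189, 0.54, 0.0505 and 0.0505; range 0.00836 to 0.54). At 2 mg, the call of Cyp2c37 probe 2 ended with the authors' values and with median scaling (limma adjusted p = 0.0809 and 0.312; range 5.92e-05 to 0.312). It also ended without vehicle replicate 1 or 2 mg replicate 1 (log2 changes of -0.975 and -1.04). The 2 mg call of Cyp2c67 ended with median scaling (0.157; range 5.42e-06 to 0.157), and its 5 mg call under 3 of 19 alternatives, among them without vehicle replicate 1 (0.0695; range 0.000334 to 0.501). With median scaling the 2 mg calls of Cyp2c37 and Cyp2c50 had an adjusted p of 0.112 and 0.0855, the highest over their alternatives, whose lowest were 2.32e-05 and 2.55e-05. Groups without overlap against vehicle were seen for 5 genes at 2 mg, beside 41.1% of all tested probes, and for 5 genes at 5 mg, beside 39.9%.

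In order of level, Cyp2c37 and Cyp2c50 ran from CCl4 through 2 mg and 5 mg to vehicle, and by the brightest probe of each gene 2 mg against 5 mg is the pair of neighbours that did not pass the threshold. By probe 2 of Cyp2c37, 5 mg against vehicle did not pass either. For Cyp2c39 the order by group mean was CCl4, vehicle, 5 mg and 2 mg, and no pair among the last 3 passed. For Cyp2c70 it was CCl4, 2 mg, 5 mg and vehicle, with 0 pairs past the threshold. Over the 8 arrays, which share these groups, Cyp2c37 and Cyp2c50 had a correlation of log2 values of 0.9912. Among 3656 genes outside the family above background on all arrays, the pattern most like that of Cyp2c37 was that of Etfa, an electron carrier of mitochondrial fatty acid oxidation (0.9882). For Cyp2c50 it was Hspb6, a small heat shock protein (0.9878), and for Cyp2c70 it was Rufy1, an endosomal trafficking protein (0.9599), while the member most like Cyp2c70 was Cyp2c37 (0.7192). Arrays of 1 group are close to each other in all genes, and the correlations are given as a description.

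The counts over gene lists that follow stand beside 5.51% of all tested probes called lower and 5.97% called higher with CCl4 against vehicle, and 4.05% to 4.14% called in each direction with either erlotinib dose against CCl4. Other P450s of families 1 to 3, which oxidise drugs and steroids as the Cyp2c enzymes do, fell in part with CCl4. Of 28 tested, 7 were under background on every array. With CCl4, 10 of the 28 were lower and 0 higher than with vehicle (median change -0.27). Cyp1a2, an enzyme of caffeine and arylamine oxidation, fell by 2.29 on the log2 scale, Cyp2e1, the main activator of CCl4, by 1.97, and Cyp3a25 by 1.71 (limma adjusted p = 3.35e-08, 5.84e-06 and 5.97e-07). With erlotinib, 12 of the 28 were higher and 0 lower than with CCl4 alone at each dose (median changes 0.38 and 0.21). Cyp1a2 was higher by 2.10 at 2 mg and 2.17 at 5 mg, Cyp2e1 by 1.82 at both and Cyp3a25 by 1.39 and 1.46 (largest limma adjusted p of the 6, 3.57e-05). With median scaling, 4 of the 28 were higher at 2 mg and 5 at 5 mg, and without CCl4 replicate 2 or 2 mg replicate 2 the count at 2 mg was 5. Against vehicle, 3 of the 28 were higher and 0 lower at 2 mg, and 2 higher and 0 lower at 5 mg. Of all tested probes, 1.5% and 1.06% were called higher. Cyp2b10 was higher than vehicle by 0.98 at 2 mg (limma adjusted p = 0.00106), and Cyp2b13 by 1.18 at 2 mg and 2.29 at 5 mg (0.0451 and 0.00033). With median scaling these calls of Cyp2b10 and Cyp2b13 ended (limma adjusted p = 0.115, 0.755 and 0.17). Among other alternatives, the 2 mg call of Cyp2b13 also ended without background correction and with the authors' values (0.186 and 0.301). With an intensity trend and robust variance prior it ended as well (0.543). The 5 mg call of Cyp2b13 also ended with the authors' values and with that prior (0.0614 and 0.281). Cyp2b23, a gene of the phenobarbital-inducible Cyp2b family, was higher than vehicle by 0.85 at 2 mg and 1.31 at 5 mg (limma adjusted p = 0.00825 and 0.000285). Its 2 mg call ended with median scaling and with the authors' values (limma adjusted p = 0.216 and 0.0903), and without vehicle replicate 1 or 2 mg replicate 1.

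**Figure D4:**
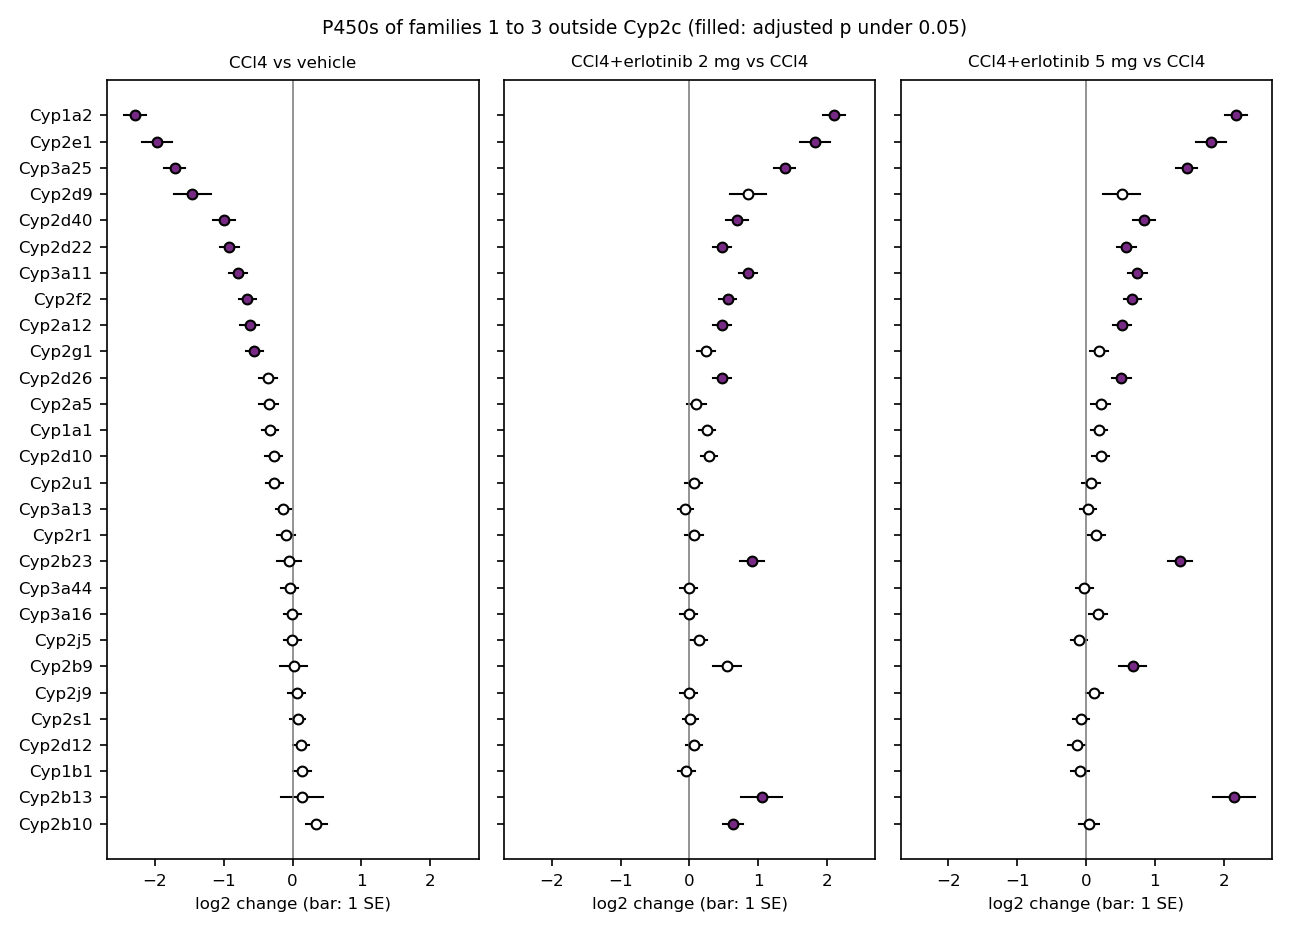
Log2 change (points, bars of 1 SE) of the 28 tested P450 genes of families 1 to 3 outside Cyp2c in 3 comparisons, ordered by the change with CCl4; filled points passed the threshold. The 10 called genes at the top are left of 0 with CCl4, and 12 genes are filled right of 0 in each erlotinib panel, Cyp1a2 with the largest 5 mg change.

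Of 23 tested regulators of hepatic Cyp2c genes, 6 were lower and 0 higher with CCl4 than with vehicle, beside 5.51% and 5.97% of all tested probes. Ghr, the growth hormone receptor, fell by 1.78 on the log2 scale, Nr1i3, the nuclear receptor CAR, by 0.85, and Nr1h4, the bile acid receptor FXR, by 0.70 (limma adjusted p = 1.57e-07, 0.000117 and 0.000782). Against CCl4 alone, 3 were higher and 1 lower at 2 mg, and 3 higher and 0 lower at 5 mg: Ghr by 0.72 and 0.85, Nr1h4 by 0.94 and 1.09, and Cebpa, a transcription factor of hepatocytes, by 0.70 and 0.85. Cebpb, a transcription factor of the acute phase, was the gene that was lower at 2 mg (-0.65 ± 0.13, limma adjusted p = 0.00291; 0.062 without 2 mg replicate 1). The 2 mg call of Ghr ended without 2 mg replicate 2 (0.0593), and that of Cebpa without CCl4 replicate 2 or 2 mg replicate 2 (0.142 and 0.186). Nr1i3 was lower than vehicle at 2 mg and 5 mg, by 0.76 and 0.98 on the log2 scale (limma adjusted p = 0.00168 and 0.000219; 0.0566 at 2 mg without vehicle replicate 1). Of the 23, 3 were lower and 0 higher than vehicle at each dose. Of all tested probes, 1.28% were called lower at 2 mg and 0.72% at 5 mg. Ghr was lower than vehicle by 1.06 and 0.93 (limma adjusted p = 0.000235 and 0.00123), Cebpb at 2 mg by 0.51, and Socs2 at 5 mg at least 1.63-fold. With median scaling these Ghr, Cebpb and Socs2 calls ended (limma adjusted p = 0.254 and 0.492, 0.803 and 0.438). Among other alternatives, the Cebpb call against vehicle also ended with the authors' values (0.063). With an intensity trend and robust variance prior (0.0723), and without either vehicle array, it ended as well. The Socs2 call also ended without background correction and with the authors' values (0.0889 and 0.154), and without vehicle replicate 1. Under background on every array were 6 of the 23, among them Nr1i2 (PXR), named here after its values were seen. Without vehicle replicate 1, 3 regulators were lower with CCl4. With median scaling, 2 regulators were lower with CCl4, 0 were higher or lower with either dose of erlotinib against CCl4, and the calls of Nr1h4 with CCl4 and of Nr1i3 against vehicle ended (limma adjusted p = 0.243, 0.201 and 0.0762).

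Of 27 tested genes of arachidonic acid oxygenation and epoxide hydrolysis, 10 were under background on every array. With CCl4, 3 of the 27 were higher and 4 lower than with vehicle. Ephx2, the soluble epoxide hydrolase that breaks down the products of the Cyp2c epoxygenases, fell by 1.15 on the log2 scale, and Cyp4f14, a P450 that hydroxylates leukotrienes, by 1.84 (limma adjusted p = 7.97e-06 and 1.08e-06). Ephx1, the microsomal epoxide hydrolase, was higher by 0.91 (limma adjusted p = 0.00151). Against CCl4 alone, 3 genes were higher and 0 lower at each dose, Ephx2 by 0.83 and 0.94, Cyp4f14 by 1.32 and 1.48 and Cyp4f15 by 1.22 and 1.17. With median scaling, Cyp4f14 alone of these 3 passed at both doses, and Ephx1 did not pass with CCl4 (limma adjusted p = 0.0831).

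Of 15 tested genes of electron supply and heme, 1 was higher and 2 were lower with CCl4 than with vehicle, and the median change was 0.06. The 1 higher gene of 15 is near the 5.97% of all tested probes called higher. Uros and Hmox1 were under background on every array. Blvrb, a biliverdin reductase, was higher by 0.92 with CCl4 (limma adjusted p = 5.83e-05) and lower by 0.59 at 2 mg and 0.81 at 5 mg than with CCl4 alone (0.00514 and 0.000346). Cyb5a, the cytochrome b5 that passes electrons to P450s, was lower by 0.47 with CCl4 (0.0205), a call that ended without CCl4 replicate 2 or vehicle replicate 1 (0.164 and 0.283). Against CCl4 alone, 3 of the 15 were higher and 1 lower at 2 mg, and 2 higher and 2 lower at 5 mg. Without CCl4 replicate 2 the counts higher were 1 at 2 mg and 0 at 5 mg, the count at 5 mg was also 0 without either 5 mg array, and with median scaling 0 of the 15 passed in limma in these 3 comparisons. Of 15 genes of bile acid synthesis, the pathway Cyp2c70 belongs to in mice, 4 were under background on every array. With CCl4, 7 of the 15 were lower and 0 higher, and 5 were higher and 0 lower with each erlotinib dose against CCl4. With median scaling 1 was higher at each dose, and single arrays left out took the count lower with CCl4 to 4 (CCl4 replicate 2 or either vehicle array) and the count higher to 3 at 2 mg and 2 at 5 mg (CCl4 replicate 2), or 3 at 5 mg (either vehicle array or 5 mg replicate 1). Against vehicle, 1 of the 15 was higher and 2 were lower at 2 mg, and 0 were higher and 1 lower at 5 mg. Over the alternatives, 0 to 1 were higher and 1 to 2 lower at 2 mg, and 1 to 2 lower at 5 mg. Cyp7b1, the oxysterol hydroxylase of the acidic pathway, fell by 3.54 with CCl4 (limma adjusted p = 3.64e-10). With erlotinib it was still lower than with vehicle, with log2 changes of -3.246 at 2 mg and -3.202 at 5 mg (limma adjusted p = 6.59e-09 and 8.19e-09).

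Some markers of hepatocyte zones, stellate cells and macrophages moved with the groups. In whole liver, fewer cells of a type and less RNA per cell cannot be told apart. Of 15 pericentral genes, 3 were under background on every array. With CCl4, 6 of the 15 were lower and 0 higher, and 6 at 2 mg and 5 at 5 mg were higher than with CCl4 alone, with 0 lower. Cyp1a2, Cyp2e1 and Nr1i3, among those lower with CCl4, were also counted above as P450s or regulators, so these counts are not separate. The counts against CCl4 were 3 and 3 with median scaling, 3 at 2 mg without CCl4 replicate 2 or 2 mg replicate 1, and 2 at 5 mg without CCl4 replicate 2 or 5 mg replicate 2. Of 14 periportal genes, 2 were under background on every array. With CCl4, 8 of the 14 were lower and 2 higher, and 6 were higher and 1 lower at each dose of erlotinib against CCl4. Cyp2f2, among those higher at 5 mg, was also counted above as a P450. With median scaling 5 were lower and 1 higher with CCl4, and 2 were higher and 0 lower at each dose. Of 17 hepatocyte identity genes, 3 were lower and 1 higher with CCl4, beside 5.51% and 5.97% of all tested probes, 2 were lower and 0 higher at 2 mg than with CCl4 alone, and 2 were lower and 3 higher at 5 mg. These counts moved with the processing: over the alternatives 0 to 4 were lower and 0 to 4 higher with CCl4 (4 higher with the authors' values), and with median scaling 0 passed in these 3 comparisons in limma. Their summed normalized intensity was 125900 to 126500 in CCl4 livers, 116600 to 118500 at 2 mg, 120100 to 123000 at 5 mg and 119200 to 120000 in vehicle livers.

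Of 15 stellate and myofibroblast markers, 7 were higher and 0 lower with CCl4, and 2 at 2 mg and 3 at 5 mg were lower than with CCl4 alone. Their sum was 2514 to 3050 in CCl4 livers, 2288 to 2405 at 2 mg, 1924 to 2156 at 5 mg and 1713 to 1724 in vehicle livers, with Rgs5 and Col3a1 under background on every array. Of 9 macrophage markers, 5 were higher and 0 lower with CCl4, and 1 at 2 mg and 2 at 5 mg were lower than with CCl4 alone, with sums of 3397 to 3524 in CCl4 livers, 2131 to 2732 at 2 mg, 2220 to 2286 at 5 mg and 1282 to 1402 in vehicle livers. Itgam was under background on every array. The median change of the 9 against CCl4 alone was -0.173 at 2 mg and -0.195 at 5 mg. Against vehicle, 4 of the 9 were higher and 0 lower at each dose, beside 1.5% and 1.06% of all tested probes called higher. Lyz2 was higher than vehicle by 1.80 with CCl4, 1.80 at 2 mg and 1.61 at 5 mg on the log2 scale. The genes lower at 5 mg than with CCl4 alone were Cd14, an endotoxin co-receptor (-2.92 ± 0.20, limma adjusted p = 1.56e-07), and Gpnmb, a glycoprotein of lipid-laden macrophages (-0.59 ± 0.14, adjusted p = 0.0104). The Gpnmb call ended without CCl4 replicate 2 or 5 mg replicate 1, with median scaling and with averaged probes (0.186, 0.185, 0.327 and 0.768; range 0.00521 to 0.768), and the count at 2 mg was 2 without CCl4 replicate 2 or 2 mg replicate 1. Of 5 cholangiocyte markers, 1 was higher with CCl4 (0 without vehicle replicate 1), with sums of 483.9 to 524.9 in CCl4 livers, 453.5 to 456.8 at 2 mg, 394.1 to 491.9 at 5 mg and 379.6 to 384.4 in vehicle livers, and Sox9 and Prom1 under background on every array. Of 14 endothelial markers, 0 were called with CCl4 against vehicle or with either erlotinib dose against CCl4. They summed to 1916 to 2211 in CCl4 livers, 1949 to 2009 at 2 mg, 1868 to 1934 at 5 mg and 2170 to 2197 in vehicle livers. Of 10 lymphocyte and neutrophil markers, 8 were under background on every array, and 1 was higher and 0 lower with CCl4. That gene was S100a8, a calcium-binding protein of neutrophils, above background on both CCl4 arrays and neither vehicle array and at least 1.26-fold higher (0.83 ± 0.16, limma adjusted p = 0.00126). The part of these cell types in the Cyp2c values was not tested.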

How the data were processed

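Per the labels, total RNA from frozen liver was extracted with TRIzol, labelled with Cy5 and hybridised to Illumina bead arrays. The authors' deposited non-normalized table gives 1 intensity per probe and array (25697 probes, 8 arrays), and from it the log2 values were computed. A second deposited table holds the authors' normalized intensity, by a method not given in the sources used here, and served as an alternative (rank correlation with the first at least 0.9996 for the same array).

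In limma 3.58.1 (R 4.3.3), intensities were corrected by normexp (offset 50), quantile normalized and taken to log2. Probes with a mean above the 40th percentile (15418) entered 1 fit of all 4 groups, with 4 residual and 12.7 prior degrees of freedom. For each gene, the probe with the highest mean stands. An "at least" fold sets the brighter group's mean against that of the dimmer group with each array raised to its background limit. With 2 arrays a group, the number of arrays limits the precision. Platform symbols named 23978 probes; 1719 had none. The script was tested on simulated data.

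The members, lists and tests were chosen with earlier results of these data known. Every member is named; of each list, up to 3 called genes per direction and comparison with the smallest p-values could be named, and the text gives part of these. Alternatives changed the background correction, scaling, filter, variance prior, weights, probes of a gene, arrays in the fit and single arrays.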

Additional observations from a re-analysis of the deposited data

How the results depend on the processing

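Of the member results recomputed, 1008 kept their side of the threshold, 30 lost a call and 6 gained one, and 0 called values reversed. The 1008 include results that did not pass at first and still did not, so they do not measure how stable the calls were. Values that did not pass could change sign. The count of members called against vehicle at 5 mg, 3, was 1 without background correction, 0 with the authors' values, 0 with median scaling, 1 with only probes above background on all arrays (added after seeing the data), 1 when probes of the same gene were averaged, and 0 to 3 when single arrays were left out. At 2 mg it was 0 with median scaling in place of 2. The counts with CCl4, and with each dose against CCl4, stayed at 2 to 4 under all alternatives. Median scaling cut the probes called from 1771 to 641 with CCl4, from 1251 to 235 and from 1276 to 249 with erlotinib 2 mg and 5 mg against CCl4, and from 429 to 66 and from 274 to 43 against vehicle. It moved the share of calls that were higher from 50% to 39.6% at 2 mg against CCl4 and from 54.1% to 71.2% at 2 mg against vehicle. The cause was not tested. Without CCl4 replicate 2 there were 664 and 683 calls with 2 mg and 5 mg against CCl4, and without vehicle replicate 1 there were 1165 with CCl4, 161 with 2 mg and 103 with 5 mg against vehicle. Against vehicle, at 2 mg and 5 mg, there were 277 and 130 with the authors' values, 268 and 150 with probes above background on all arrays, 263 and 156 with averaged probes, and 227 and 127 without vehicle replicate 2. Without 2 mg replicate 1 there were 184 at 2 mg against vehicle, without 5 mg replicate 1 there were 148 at 5 mg against vehicle, and without 5 mg replicate 2 there were 807 against CCl4 and 176 against vehicle. Between the doses the count of 2 was 0 to 8. No paired analysis was possible because the labels carry no replicate numbers or pairing. The planned detection filter and slide block were not run, for want of those columns in the files used. Signal over background limits what can be said of Cyp2c29, Cyp2c38, Cyp2c40 and Cyp2c55.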
